A study of Homo sapiens with 4 samples.

Results

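The genes described here are the pseudogenes of ribosomal protein genes that had reads in poly(A) RNA of HEK293T cells, a human embryonic kidney line. They were taken by symbol (RPL or RPS, the number of a ribosomal protein, then P and a number) and by a pseudogene biotype in the annotation, and were selected on their summed counts, at least 40 over the 4 libraries. Of 1493 pseudogenes with such a symbol, among 62700 genes counted, 141 met the minimum, 600 had 1 to 39 counts and 752 had none. The members derive from 54 parent genes. The annotation calls 123 of them processed and 15 transcribed processed pseudogenes, whereas RPL13AP26 and RPL6P11 are listed as unprocessed and RPL9P9 only as a pseudogene, so the label processed does not hold for these 3. Just inside the minimum were RPL21P98 with 40 counts and RPL35P5 and RPL37P6 with 41 each, and just outside it RPS7P14 with 39 and RPL10P6 and RPL29P1 with 38 each.

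The study asked what threonine 4 of the repeated C-terminal domain (CTD) of RPB1, which carries the active site of RNA polymerase II, does in transcription. Both groups were transiently transfected with an RPB1 that resists α-amanitin, a toxin that eliminates the endogenous RPB1, and both received the toxin at 2.5 µg/ml for 48 hours, starting 1 day after transfection. The CTD was wild type in the WT group and carried alanine in place of threonine 4 of the repeats in the T4A group. Each group had 2 libraries, which the study calls biological replicates, although nothing in the labels ties them to separate cultures. The p-values below therefore rest on how far these libraries scatter, and that scatter may be technical.

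A processed pseudogene arises when an mRNA is copied into DNA by the reverse transcriptase of a retrotransposon and inserted at a new place in the genome. The copy lacks the introns and usually the promoter of its parent. Ribosomal protein mRNAs are short, abundant and made in every dividing cell, and their copies form the largest known group of processed pseudogenes in the human genome. Because a young copy differs from its parent at few bases, a sequencing read can fit both places.

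Total counts ranged from 19257217 to 33063535 per library. POLR2A, the gene of RPB1, had 5370 and 5470 CPM (counts per 1000000) in T4A libraries and 3766 and 2759 CPM in WT libraries, which includes the constructs as far as their reads align to it. These CPM and those below use library sizes scaled by TMM and are shares of a library, so that fewer cells and less RNA per cell cannot be told apart. Of the markers of this line, VIM, KRT8, KRT18, NEFM and PAX2 were detected and TUBB3 had only 28 counts in all. HBB, CD68 and KRT5, markers of other cell types, had no count, PTPRC and CD3E had 2 and 4 counts, whereas ALB had 94 and COL1A1 had 3060.

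The structure of the members was that of copied mRNAs. A single exon was annotated for 131 of the 141, against 3 to 10 exons (median 6) in the parents. The copy covered at least 99% of the coding sequence of its parent in 121 members. Of the 29 members with 1000 counts or more, 17 covered at least 99% of the coding sequence of the parent with at most 6 differing or gapped bases. Among all members, 6 matched the whole coding sequence of the parent without a difference: RPS28P7, RPL36AP37, RPL39P3, RPL21P16, RPL41P1 and RPL41P5. The coding stretch of RPS28P7 is shown whole because it took more counts than its parent, and that of RPL39P3 because its parent took more counts than it did.
RPS28P7: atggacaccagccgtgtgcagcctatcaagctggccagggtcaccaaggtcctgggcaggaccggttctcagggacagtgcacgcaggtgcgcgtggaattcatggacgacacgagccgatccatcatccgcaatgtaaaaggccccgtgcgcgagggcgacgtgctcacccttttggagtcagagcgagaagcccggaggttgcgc
RPL39P3: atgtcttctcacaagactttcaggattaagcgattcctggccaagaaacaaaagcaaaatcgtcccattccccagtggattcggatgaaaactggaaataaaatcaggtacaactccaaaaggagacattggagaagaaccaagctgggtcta

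RPS2 encodes a protein of the small ribosomal subunit, and its copies RPS2P5 and RPS2P46 held most counts of the members beside RPS28P7. Their identity to RPS2 over the whole coding sequence was 98.8% and 98.6%. Of all 100-base windows of RPS2P5, 30.4% occurred without a change in RPS2 and 40.1% in at least 1 other gene.

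Counts were concentrated in few members. RPS2P5 (ENSG00000240342.3, chromosome 12, 118246061 to 118247002, GRCh38) held 46.8% of all member counts, the first 3 held 74.0% and the first 12 held 87.8%, while the median member had 185 counts over the 4 libraries. All named pseudogenes outside the members held under 1% of the counts of the family, since the members had 99.5% of them. RPS2P5 stood at 4041 and 3764 CPM in T4A and at 3090 and 2973 CPM in WT. RPS28P7 (chromosome 11, 82689530 to 82689904) had 1504 and 1507 CPM in T4A and 1014 and 967 CPM in WT. RPS2P46 (chromosome 17, 19445933 to 19446875) had 859 and 923 CPM in T4A and 699 and 678 CPM in WT. In each of these 3 both T4A libraries lay above both WT libraries, as they did in 36.9% of all genes with 1000 counts or more. The next member, RPS27P3, was far lower, with 179 and 180 CPM in T4A and 112 and 123 CPM in WT, and the remaining members of the first 12 followed down to RPS7P1 without a comparable gap.

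**Figure D1:**
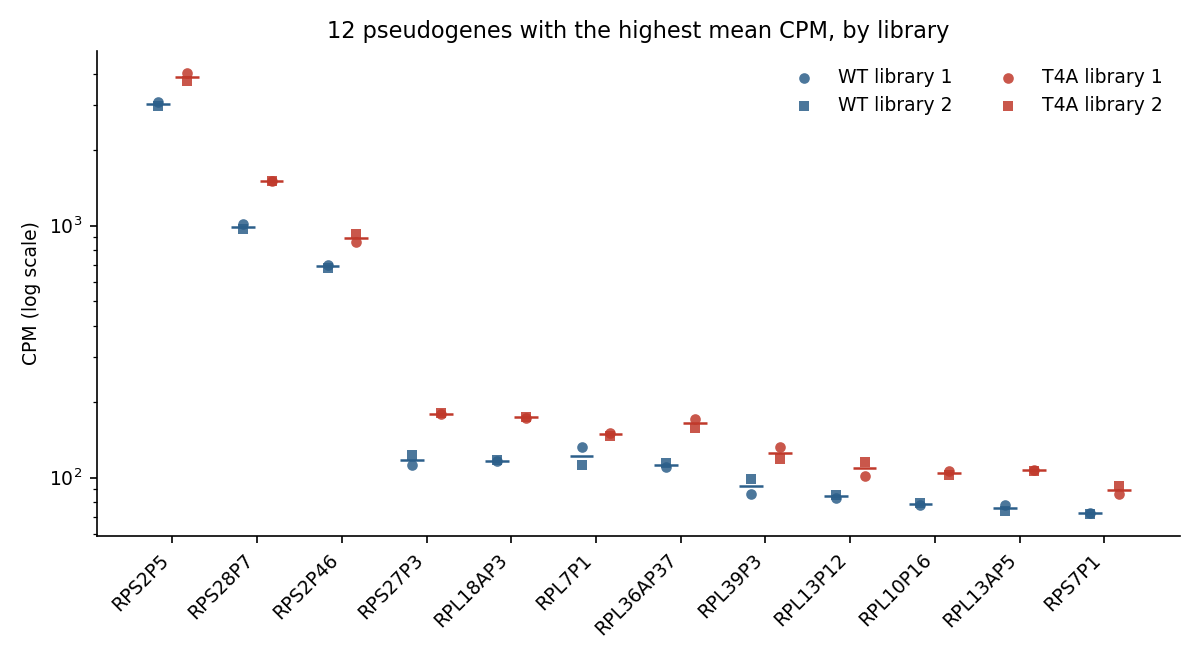
CPM on a log axis of the 12 pseudogenes with the highest mean, with a point for each library (circle, library 1, and square, library 2) and a bar at the mean of each group. RPS2P5, RPS28P7 and RPS2P46 stand apart from the other 9, and in all 12 both T4A libraries lie above both WT libraries, where 36.9% of all genes with 1000 counts or more do so.

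Set beside its parent, the typical member was a trace. The median member had 0.21% of the counts of its parent, and 101 of 141 had under 1%. RPS2P5 reached 24.0% and 23.1% of the counts of RPS2 in T4A and 24.7% and 24.3% in WT, with 3944 CPM per kilobase against 15310 CPM per kilobase for RPS2. Levels per length of member and parent had a Spearman correlation of 0.08 across 131 members whose parent had 1000 counts or more, a description across genes that share libraries and families.

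More counts than their parent were found in 5 members: RPS28P7, RPL36AP37, RPS18P5, RPS18P9 and RPS18P12. RPS28P7 had 4.80 times the 25303 counts of RPS28, a protein of the small subunit, although the coding sequences are identical. RPL36AP37 (chromosome 11, 16974646 to 16975044) had 13490 counts, 20.4 times the 661 counts of RPL36A on the X chromosome, which encodes a protein of the large subunit. RPL36A overlaps the read-through gene RPL36A-HNRNPH2 on the same strand, which itself had 16 counts.

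The RPS18 family went furthest in this respect. RPS18, whose protein sits in the head of the small subunit, had only 22 counts (4 and 10 in T4A, 4 and 4 in WT), and no other gene overlaps it on either strand in the lifted annotation. RPS18P5 (chromosome 3, 101576446 to 101576990) received 909 and 649 counts in the T4A group and 792 and 727 in the WT group. RPS18P9 had 354 counts in all and RPS18P12 had 118. Why the parent had so few counts was not tested. RPS18P5 and RPS18 are shown over bases 59 to 208 of the coding sequence, because the copy had counts where its parent had next to none. Capitals mark the 4 bases at which copy and parent differ, and do the same in the other pairs of sequences printed.
RPS18: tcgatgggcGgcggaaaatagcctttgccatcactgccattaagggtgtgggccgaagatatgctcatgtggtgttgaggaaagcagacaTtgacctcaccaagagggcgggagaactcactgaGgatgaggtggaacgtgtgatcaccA
RPS18P5: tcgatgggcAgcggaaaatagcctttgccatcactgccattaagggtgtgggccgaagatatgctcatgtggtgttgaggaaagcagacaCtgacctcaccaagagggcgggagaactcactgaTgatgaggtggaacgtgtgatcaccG

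Whether a pseudogene had counts went with its likeness to the parent. Of pseudogenes under 90% identity to the coding sequence of the parent, 18 of 861 (2.09%) were members. The share was 7.06% from 90% to 95%, 32.3% from 95% to 98%, 65.6% from 98% to 99%, and 76.9% (30 of 39) from 99% up to and including full identity. Median identity was 85.9% for pseudogenes with no count, 90.6% for those with 1 to 39 counts and 96.7% for the members. Among the members, identity and summed counts had a Spearman correlation of 0.58 (n = 141 genes of the same libraries, given as a description). Since close copies are also those that share reads with their parents, and since the sources used here do not say how reads that fit several places were counted, transcription of a copy and reads of its parent cannot be told apart from these counts.

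**Figure D2:**
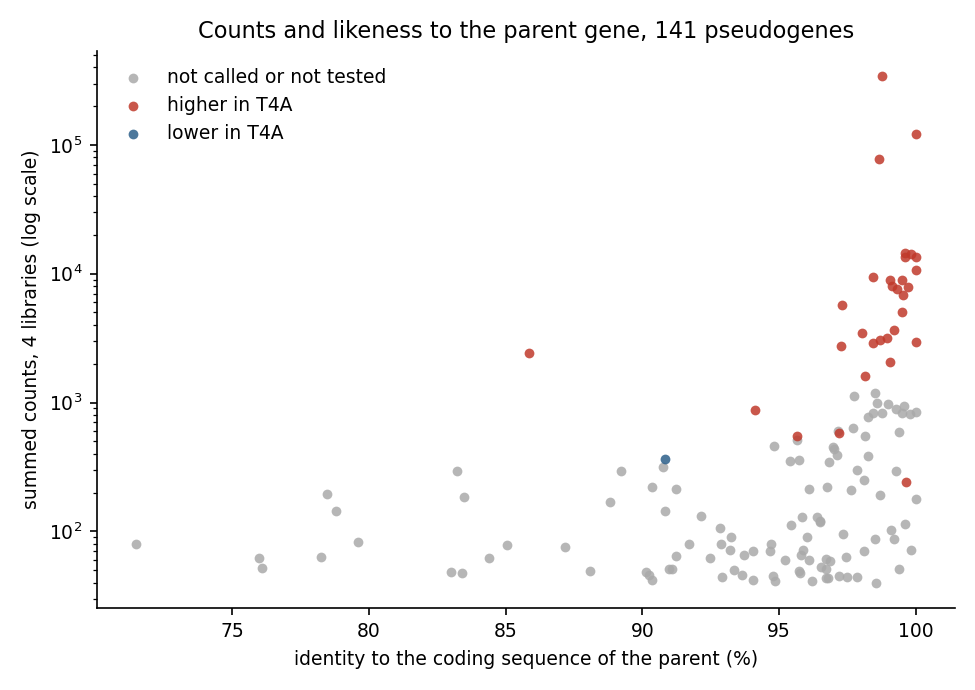
Summed counts over 4 libraries (log axis) against identity to the coding sequence of the parent (%), with a point for each of the 141 members, colored by the call in T4A against WT. Of the 29 members with 1000 counts or more, 25 have at least 98% identity, and RPL36P5, at 85.8%, is the member with high counts and low identity.

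The direction of the change was mostly upward in T4A cells. In edgeR's quasi-likelihood test with Benjamini-Hochberg adjustment over all genes tested, 31 of the 139 members tested were higher in T4A and 1 was lower (adjusted p under 0.05), where 10.7% of all 18139 genes tested were higher and 13.0% were lower. The median log2 fold change was 0.37 over these members and -0.01 over all genes. RPS6P25 and RPL21P98 had too few counts to be tested, and 6 of the tested members passed the count filter through the libraries of only 1 group (4 through T4A, 2 through WT), so these counts describe the members that were tested and not all of them. With the trend of log2 fold change on exonic length taken out, the median of the members fell to 0.19, and the log2 fold changes of the 12 members with the most counts, each of which moved by over 1.5 times, ran from 0.10 (RPL7P1) to 0.38 (RPS27P3).

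The calls followed the depth. Of the 29 members with 1000 counts or more, 27 were higher and none was lower. All 29 had a log2 fold change above 0 in edgeR, with a median of 0.41. Of all genes with as many counts, 22.3% were higher and 24.9% were lower. The members not called were RPL7AP6 (0.27, adjusted p = 0.243 in edgeR) and RPS2P55 (0.07, adjusted p = 0.851). Of the 55 members with at least 100 but under 1000 counts, 4 were higher and 1 was lower, with a median of 0.28, where 3.26% of all genes in this range were higher and 6.25% were lower. None of the 55 tested members with 40 to 99 counts was called in edgeR or limma-voom (DESeq2 gave none of them an adjusted p), and 1 (lower) had an unadjusted p under 0.05 in edgeR. Of all 2937 genes tested in this range, 0.85% were higher and 1.36% were lower. The 55 members had a median of 0.38, so that at this depth a change of such size was not detectable in a single member. Other processed pseudogenes with at least 40 counts had 30 called higher and 20 called lower of 537 tested, with a median of 0.11. Of the 55 among them with 1000 counts or more, 19 (34.6%) were higher and 3 were lower, with a median of 0.14. That class also holds ribosomal protein pseudogenes whose symbols the rule does not take, such as RPLP0P6.

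**Figure D3:**
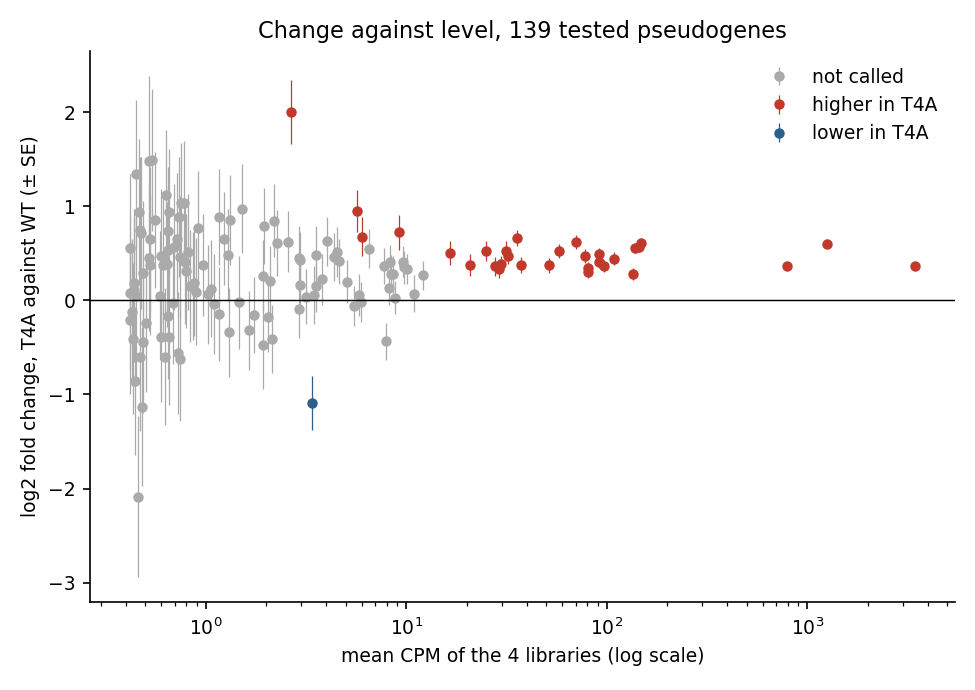
Log2 fold change of T4A against WT (± SE) against mean CPM (log axis) for the 139 tested members, each a point colored by its call. Members above 10 CPM lie between 0.07 (RPS2P55) and 0.67 (RPL22P1), and those under 1 CPM scatter on both sides of 0. Among the called members, RPL9P7 (higher) and RPL23AP7 (lower) lie apart. The lowest point is RPL39P16 (-2.09, 49 counts), which was not called and falls outside the rule for named genes.

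Copies of small-subunit genes rose in 9 of 42 tested, with a median log2 fold change of 0.48. Of all genes tested, 10.7% were higher and 13.0% were lower. None of the 42 was lower in edgeR or limma-voom, nor at an unadjusted p under 0.05 in edgeR, and DESeq2 called none lower of the 19 to which it gave an adjusted p. RPS2P5 rose by 0.36 ± 0.03 (log2 fold change ± SE, adjusted p = 5.5e-08) and RPS2P46 by 0.37 ± 0.04 (adjusted p = 5.1e-07). RPS28P7 rose by 0.60 ± 0.03 (adjusted p = 1.4e-10), and RPS27P3, a copy of a gene for a zinc-binding protein of the small subunit, by 0.61 ± 0.06 (adjusted p = 1.2e-07). RPS15P4 had 70.2 and 66.8 CPM in T4A and 47.1 and 48.2 CPM in WT, a rise of 0.52 ± 0.08. RPS7P1 rose least among the 12 members with the most counts apart from RPL7P1, by 0.30 ± 0.07 (adjusted p = 0.00212).

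Copies of large-subunit genes rose in 22 of 97 tested and fell in 1, with a median of 0.34, where 10.7% of all genes tested were higher and 13.0% were lower. RPL18AP3, inside an intron of TXNRD1, had 173 and 174 CPM in T4A and 116 and 118 CPM in WT, a rise of 0.57 ± 0.05. RPL36AP37 rose by 0.56 ± 0.06, from 110 and 114 CPM in WT to 171 and 158 CPM in T4A. RPL39P3, a copy of the gene for one of the smallest ribosomal proteins, had 133 and 118 CPM in T4A and 86.0 and 98.9 CPM in WT, a rise of 0.44 ± 0.07. The groups did not overlap in any of these 3. Both T4A libraries lay above both WT libraries in 36.9% of all genes with 1000 counts or more. RPL13AP5 rose by 0.50 ± 0.06 and RPL10P16, a copy of the gene whose protein completes the large subunit before it joins the small one, by 0.41 ± 0.06. RPL7P1 rose by 0.28 ± 0.07 (adjusted p = 0.0035), a call that depended on WT replicate 2 (adjusted p = 0.0935 with it left out).

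The parents moved the same way. Of 53 parents tested, 51 were higher in T4A and none was lower (all 53 lay above 0 in edgeR), with a median log2 fold change of 0.42, whereas RPS10 (0.34, adjusted p = 0.152) and RPL17 (0.26, adjusted p = 0.318) were not called. The list of all cytosolic ribosomal protein genes, which holds the parents, had 75 of 80 tested higher and none lower, with a median of 0.44. Among all genes tested, 10.7% were higher and 13.0% were lower. With 1000 counts or more, the shares over all genes were 22.3% and 24.9%. Pseudogene and parent of a pair were compared by the difference of their log2 fold changes with a 95% interval from both standard errors, taken as independent and without adjustment. Over 136 pairs the median difference was -0.06, and 126 intervals held 0. The median was -0.13 without T4A replicate 1, -0.11 without WT replicate 2 and -0.17 with the length trend removed. In the 28 pairs whose pseudogene had 1000 counts or more, the median difference was -0.05, 24 pairs lay within 0.15 of each other, and 25 intervals held 0, with a median width of 0.33. The intervals of the 55 pairs with 40 to 99 counts had a median width of 2.83 and so say little about a likeness. Across the 28 pairs the fold changes of member and parent had a Pearson correlation of 0.36 and a Spearman correlation of 0.33, as a description.

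**Figure D4:**
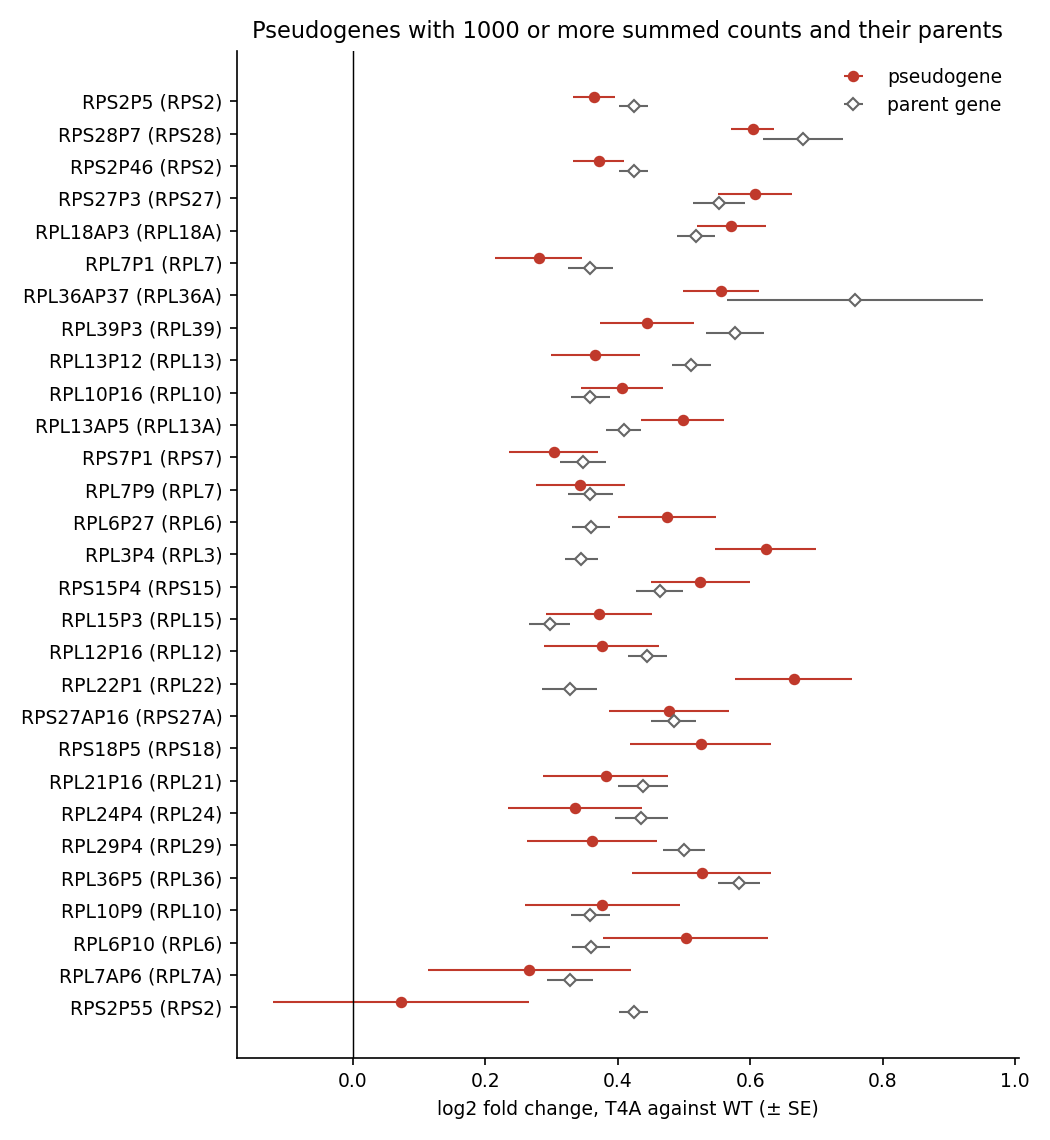
Log2 fold change of T4A against WT (± SE) for the 29 members with 1000 counts or more (filled circles) and their parents (open diamonds), in the order of member counts. The interval of the difference excludes 0 for RPL3P4 and RPL22P1, above their parents, and RPL13P12, below. RPS2P55 (-0.35) and RPL36AP37 (-0.20) lie further below with intervals that hold 0, and RPS18P5 has no diamond because RPS18 was not tested.

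Of these 28 pairs, 3 differed from the parent by an interval that excluded 0: RPL3P4, RPL22P1 and RPL13P12. RPL3P4 covers 34.7% of the coding sequence of RPL3, whose protein reaches towards the peptidyl transferase centre. It had 91.0 and 79.4 CPM in T4A and 54.3 and 56.4 CPM in WT, a rise of 0.62 ± 0.08, whereas RPL3 rose by 0.35 ± 0.02, a difference of 0.28 (interval 0.12 to 0.44). RPL22P1 had 43.0 and 44.7 CPM in T4A and 27.8 and 27.4 CPM in WT, a rise of 0.67 ± 0.09, whereas RPL22, whose protein also binds small viral RNAs, rose by 0.33 ± 0.04, a difference of 0.34 (interval 0.15 to 0.53). In both, the T4A libraries lay above the WT libraries, as they did in 36.9% of all genes with 1000 counts or more. RPL13P12 rose less than RPL13 (0.37 against 0.51), with an interval of the difference from -0.29 to -0.00141.

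Members with fewer counts had wider intervals, with a median width of 1.18 over the 53 pairs with at least 100 but under 1000 counts. Of these 53 intervals 47 held 0, as did 54 of the 55 with 40 to 99 counts. RPL23AP7 (ENSG00000240356.6, chromosome 2), a transcribed processed pseudogene, was the only member called lower. It had 2.42 and 1.91 CPM in T4A and 4.41 and 4.87 CPM in WT, a log2 fold change of -1.09 ± 0.28 (adjusted p = 0.00739), whereas RPL23A, whose protein lies at the exit of the nascent chain tunnel, rose by 0.43 ± 0.03. The call rested on WT replicate 2, without which the adjusted p was 0.0646. A lncRNA that carries the same symbol but is no member (ENSG00000291064.1) had 1541 counts and a log2 fold change of -0.22 ± 0.13. RPL23AP7 is printed with RPL23A over bases 110 to 259, since it is the copy that fell and among the members described here one of the least like its parent, with 16 differences in this stretch.
RPL23A: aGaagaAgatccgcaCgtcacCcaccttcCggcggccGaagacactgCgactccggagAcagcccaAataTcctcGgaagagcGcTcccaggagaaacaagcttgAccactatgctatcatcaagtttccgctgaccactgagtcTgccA
RPL23AP7: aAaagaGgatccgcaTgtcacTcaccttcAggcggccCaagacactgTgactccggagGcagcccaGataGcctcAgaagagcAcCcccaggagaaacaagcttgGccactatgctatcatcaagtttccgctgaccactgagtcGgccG

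RPL9P7 (ENSG00000238103.4, X chromosome, 23836644 to 23837346) had the highest log2 fold change of the members, and it falls outside the rule for named genes and was chosen after its values were seen. Its counts were 99 and 78 in the T4A group and 38 and 25 in the WT group, or 4.36 and 4.14 CPM against 1.13 and 0.975 CPM. This was a 4.01-fold rise (SE 0.34 on the log2 scale, adjusted p = 0.000174), whereas RPL9 rose 1.36-fold, a difference of log2 fold changes of 1.56 (interval 0.89 to 2.22). The counts of the groups did not overlap. Both T4A libraries lay above both WT libraries in 36.9% of all genes with 1000 counts or more, whereas RPL9P7 had 240. Its 99.7% identity to RPL9 makes it a close copy, as the 2 differences in the stretch from base 217 to 366 show. It lies in an intron of APOO, on the same strand, and APOO was higher in T4A by 0.38 ± 0.11 (adjusted p = 0.0149).
RPL9: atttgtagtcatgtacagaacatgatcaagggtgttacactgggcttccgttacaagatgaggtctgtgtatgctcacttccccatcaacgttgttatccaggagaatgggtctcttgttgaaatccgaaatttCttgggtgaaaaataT
RPL9P7: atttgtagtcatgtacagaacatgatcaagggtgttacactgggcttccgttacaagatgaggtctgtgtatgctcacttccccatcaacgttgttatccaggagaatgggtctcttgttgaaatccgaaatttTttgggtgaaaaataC

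Among members with 400 counts or more, RPL14P1 was the furthest below its parent. It had 7.52 and 5.89 CPM in T4A and 10.2 and 7.95 CPM in WT, a log2 fold change of -0.44 ± 0.20 that did not pass the test (adjusted p = 0.122), against 0.29 ± 0.03 for RPL14. With T4A replicate 1 left out it did pass (-0.63, adjusted p = 0.0192 in edgeR). RPL12P12 (-0.02), RPL26P19 (-0.06) and RPL37AP1 (0.20) were the next below their parents, and none of them was called. The interval of the difference from the parent excluded 0 for RPL14P1 and RPL12P12, and held 0 for RPL26P19 and RPL37AP1. RPL35P1 was the furthest above its parent, but the interval of the difference held 0. It had 8.05 and 6.95 CPM in T4A and 4.35 and 3.39 CPM in WT. This was a rise of 0.95 ± 0.22 (edgeR, adjusted p = 0.00356) against 0.52 ± 0.03 for RPL35. Leaving out WT replicate 2 took its adjusted p to 0.0516.

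A count can be laid to a pseudogene with more certainty where no long stretch of it occurs unchanged in another gene. In 45 members no 100-base window was found without a change in any other annotated gene, and 44 of these were tested. RPL36P5, RPL12P14 and RPS20P14 were higher, or 6.82% of them against 10.7% of all genes tested. None was lower in edgeR or limma-voom, where edgeR called 13.0% of all genes tested lower. At an unadjusted p under 0.05 in edgeR, 1 of the 44 was lower. DESeq2 gave 31 of the 44 no adjusted p. The median log2 fold change was 0.21. Of 93 tested members with a shared window, 28 were higher and 1 was lower, with a median of 0.38. The unshared members also had fewer counts, at most 2442, and the difference between these sets was not tested. RPL36P5 and RPS20P14 also fall outside the rule for named genes and were chosen after their values were seen.

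RPL36P5, at 85.8% identity to RPL36, had 28.0 and 31.1 CPM in T4A and 21.5 and 19.4 CPM in WT, a rise of 0.53 ± 0.10 (adjusted p = 0.000855) beside 0.58 ± 0.03 for RPL36. RPL12P14 (chromosome 1, 15792727 to 15793339) had 10.7 and 12.2 CPM in T4A and 5.78 and 8.15 CPM in WT, a rise of 0.72 ± 0.19 (adjusted p = 0.00728) beside 0.44 ± 0.03 for RPL12. Leaving out WT replicate 1 took away the call of RPL12P14 (adjusted p = 0.158), and that of RPS20P14 (0.68 ± 0.21) was lost without T4A replicate 2 or either WT library. In RPL36P5 and RPL12P14 both T4A libraries lay above both WT libraries. The same held in 36.9% of all genes with 1000 counts or more, whereas RPL12P14 had fewer than 1000. RPL12P14 is shown with RPL12, a protein of the ribosomal stalk base, over bases 307 to 456, where 11 differences, in capitals, leave no long shared run.
RPL12: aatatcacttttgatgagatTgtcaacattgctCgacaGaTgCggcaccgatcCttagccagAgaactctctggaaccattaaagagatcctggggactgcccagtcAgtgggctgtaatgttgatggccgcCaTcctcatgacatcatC
RPL12P14: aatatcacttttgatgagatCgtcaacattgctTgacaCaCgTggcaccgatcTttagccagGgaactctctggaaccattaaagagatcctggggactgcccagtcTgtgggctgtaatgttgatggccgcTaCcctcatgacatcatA

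Many members lie inside other genes. Of the 141, 61 overlapped a protein-coding gene, 51 of them in introns alone. Of the members called higher, 12 lay in a protein-coding gene that was tested. Of these hosts APOO was higher, TXNRD1 and RSKR were lower, and 9 were not called. Among all genes tested, 10.7% were higher and 13.0% were lower. The median log2 fold change of the 12 hosts was -0.18. That of the 12 members was 0.51, but they were selected as called higher, so the 2 medians cannot be compared. RPS2P5, for example, lies in an intron of TAOK3 on the opposite strand, and TAOK3 had 480 counts against 342816 for RPS2P5.

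Summed over members, the share of a library's counts was 0.84% and 0.82% in T4A and 0.66% and 0.65% in WT. The means were 0.831% ± 0.013 and 0.654% ± 0.0023 (SD, n = 2), a 1.27-fold difference (two-sided exact permutation test, p = 0.333, the smallest that 2 against 2 libraries allow). The parents took 10.1% ± 0.014 and 7.92% ± 0.15 of the counts. The counts of the members amounted to 8.20% ± 0.12 of those of their parents in T4A and 8.26% ± 0.19 in WT, with overlapping libraries (exact permutation p = 0.667). Mitochondrial genes took 18.9% ± 0.11 of the counts in T4A and 20.8% ± 0.88 in WT, and with them left out of the total the members took 1.02% ± 0.018 in T4A and 0.826% ± 0.012 in WT, a 1.24-fold difference.

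The number of members differed between families. RPL7A, a protein of the large subunit with 80 named pseudogenes, had 9 members, RPS3A had 8 of 53, RPL21 had 7 of 133, RPL12 had 6 of 50 and RPL13A had 6 of 25. RPL23A and RPS2 had 6 members as well. RPL7A and RPS3A had many members of few counts, 2152 and 2210 in all, whereas the 6 members of RPS2 held 422197. RPL21, the parent with the most named copies of these, had 77 without a count.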

How the data were processed

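Poly(A) RNA-seq of 2 T4A and 2 WT libraries of HEK293T cells was used. The deposited values are raw counts of fragments per gene, which the authors made, according to the submitters' processing notes, with Trimmomatic 0.38, HISAT2 2.2.1 and featureCounts 2.0.1 on hg38. Counting was without strand, so overlapping genes on either strand can share counts, and so can near-identical copies.

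Names, biotypes and transcripts came from GENCODE 44 lifted to another build, where 60877 of 62700 identifiers were found, and the printed sequences are from its transcripts. Sequence of RPS2 and its copies is not reported here. The study's methods name an earlier release. Coordinates are those of RefSeq GRCh38.p14 genes, matched by symbol for 140 of 141 members.

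Genes were kept with filterByExpr and tested with glmQLFTest of edgeR 4.0.16 in R 4.3.3 after TMM normalization, with Benjamini-Hochberg adjustment over 18139 genes. Standard errors are the log2 fold change over the square root of F. Genes shared an estimate of the spread, with 17.0 prior degrees of freedom. The fit was tested on simulated data, in which estimates were unbiased but false calls ran above the nominal rate in most runs. Calls near the threshold are therefore less certain than their adjusted p. Pseudogene transcripts were aligned to the coding sequence of the parent with blastn 2.17.0. Replicates of a group differed beyond sampling noise (chi-square per degree of freedom 4.56 in T4A and 5.66 in WT).

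Members and lists were chosen with earlier results of these data known. The text names the 12 members with the highest mean CPM, up to 10 called members per direction by smallest p, the 4 furthest above and below their parents among those with 400 counts or more, the members at the minimum, their parents and the 5 parents with most members (4 parents tied at 6). Alternatives were DESeq2 1.42.0, limma-voom (limma 3.58.1), other normalizations and filters, a replicate block, a length correction and leaving out each library.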

Additional observations from a re-analysis of the deposited data

How the results depend on the processing

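DESeq2 size factors, the DESeq2 test, limma-voom, no filter, a mean of at least 1 CPM and the replicate block each gave 31 members higher and 1 lower. DESeq2 gave no adjusted p for 68 members. Same-numbered libraries did not visibly deviate together (correlation -0.01). With 2 libraries per group this cannot show whether they were prepared together, and the labels do not say. With the block the median log2 fold change was 0.36. Leaving out 1 library gave 24 to 36 members higher, 0 to 2 lower, and medians from 0.29 to 0.40, and 10 of the 32 calls were lost without at least 1 library. Members with 400 counts or more had 0 called lower. Library totals alone gave 29 higher and upper quartile normalization 33. Removing the length trend, which has no test, moved the median from 0.37 to 0.19 and the median difference from the parent from -0.06 to -0.17. Counts summed over parent and pseudogenes gave 53 parents higher against 51. The T4A minus WT difference in the log2 ratio of member to parent counts was -0.0098 with all 4 libraries. Without 1 library it ran from -0.033 to 0.013. Its sign turned without T4A replicate 2 or WT replicate 1, so this difference has no firm direction. Of 264 values of the 22 named members under alternatives with a test, 254 kept direction and side of the threshold, 4 lost it, 1 gained it and 5 turned sign. With the length trend removed, 21 of 22 kept their sign. Sign turned in RPL12P12 with upper quartile normalization (0.068) and without 1 library (-0.135 to 0.101), RPL26P19 with upper quartile normalization (0.025) and without 1 library (-0.132 to 0.022), and RPL37AP1 with the length trend removed (-0.020), none of them called. For members under 100 counts depth limits every statement on a single gene. The cause of these differences was not tested.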

Other observations

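Pseudogenes of RPSA, the RPLP stalk genes and RPL7L1 have symbols that the rule does not take. Of 104 with such a symbol, 13 had at least 40 counts, and all 13 were tested. Of these, 2 (15.4%), RPLP0P6 and RPLP0P9, were higher in T4A and none was lower. Among all genes tested, 10.7% were higher and 13.0% were lower. The median log2 fold change of the 13 was 0.35. RPLP0P6, a copy of the gene for the stalk protein P0, had a log2 fold change of 0.44 ± 0.05 (edgeR, adjusted p = 4.6e-06) at 17318 summed counts. RPSAP15, with 967 counts, had 0.08 ± 0.17 and did not pass the test.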
